A study of Mus musculus with 4 samples.

Results

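The elastic fibre and microfibril genes described here are Eln, Fbn1, Fbln1, Fbln2, Fbln5, Mfap2, Mfap4, Mfap5 and Emilin1, taken by symbol from the gene rows of the deposited matrices. All 9 were found, of 31053 genes listed. They were measured by single-cell RNA sequencing in submandibular glands of mice, one of the large salivary glands. Magnetic beads against EpCAM and Ter119, surface proteins of epithelial and of red blood cells, had first been used to deplete both. All mice were female C57BL6/J without any genetic change named in the labels. In the 2 deligated libraries, from mice aged 14 weeks, the main ducts had been clipped for 14 days and the clip removed for 5 days, and the 2 homeostatic libraries came from mice aged 12 weeks that had no surgery. Age therefore differs between the groups together with surgery, and the effects of the 2 cannot be told apart. The labels do not say how many animals gave each library, and the protocols name sublingual glands in addition, so p-values measure the spread between these libraries, which may be technical.

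An elastic fibre has a core of elastin, the rubber-like protein encoded by Eln, laid down on a scaffold of microfibrils whose main component is fibrillin 1 (Fbn1). Fibulins (Fbln1, Fbln2, Fbln5) bridge elastin, microfibrils and cell surfaces, and the microfibril-associated proteins (Mfap2, Mfap4, Mfap5) and emilin 1 (Emilin1) decorate or link those structures. In tissues such fibres give stretch and recoil to vessel walls and connective tissue, and microfibrils hold latent TGF-beta in the matrix.

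The deligated libraries held 4725 and 8713 barcodes and the homeostatic libraries 12854 and 13266, with 35662241 to 53898793 UMIs (unique molecular identifiers, one per captured RNA molecule) each. After filters 4357, 7823, 10615 and 10900 cells remained, with median UMIs per kept cell of 6013 and 5156 in deligated and 2860 and 2719 in homeostatic libraries. Between 14 and 54 barcodes were shared by a pair of libraries, at most 0.482% of the smaller one. Classes of cells were named from clusters by marker genes, and none of the 9 genes was used for clustering. Unnamed clusters held 1.31% and 1.75% of deligated and 5.08% and 5.76% of homeostatic cells. Epithelial-like cells made up 1.24% and 2.02% of deligated but 33.7% and 35.4% of homeostatic cells, although both groups are labelled as stroma-enriched. All 8 fibroblast markers, all 10 mural markers and all 9 endothelial markers were detected in the class of that name in every library. The deligated counts carry Cell Ranger 6.0.1 and the homeostatic counts Cell Ranger 7.0.0 in their file headers. Whether introns were counted is not given in the sources used here, and the effect of the version cannot be told apart from that of surgery. Long genes, those holding more than 100 kb of intron, supplied 8.58% and 8.27% of the fibroblast-like UMIs after deligation against 16.2% and 16.6% in homeostasis, so the tests were repeated with the trend of fold change on intron length removed.

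On the mouse genome GRCm38 (GENCODE M21), Fbn1 lies at chr2:125300594-125507993 on the minus strand and carries 195 kb of intron, by far the longest of the 9. Mfap2 lies at chr4:141010418-141015984 on the plus strand and Emilin1 at chr5:30913402-30921277 on the plus strand, with 4.36 and 2.94 kb of intron. Eln is at chr5:134702593-134747323 on the minus strand with 36.6 kb of intron. Fbln2 at chr6:91212455-91272540 and Mfap5 at chr6:122505845-122529290 are both on the plus strand, with 53.7 and 19.9 kb of intron. Mfap4 at chr11:61485431-61488900 on the plus strand is the most compact, with 1.55 kb of intron. Fbln5 is at chr12:101746565-101819055 on the minus strand and Fbln1 at chr15:85205949-85286535 on the plus strand, with 65.6 and 76.2 kb of intron. No listed gene overlapped any of the 9 on the same strand. On the other strand Mfap4 overlaps Mapk7, Fbn1 overlaps Gm9913 and Eln overlaps Gm30003, and whether counting used strand is not given in the sources used here. In fibroblast-like cells Mapk7 stood at 14.3 and 15.2 CPM in deligated and 13.3 and 9.56 CPM in homeostatic libraries, and Gm9913 and Gm30003 stayed at or under 4.25 CPM in every library.

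The 9 genes differed in which cell classes carried them. Most UMIs of Fbln1, Mfap4 and Mfap5 came from fibroblast-like cells, which held 95.2% to 99.3% of the Fbln1 UMIs, 96.6% to 99.2% of the Mfap4 UMIs and 96.2% to 97.5% of the Mfap5 UMIs of a library. Per UMI of the class, mural-like cells still held 31.3 and 9.90 CPM of Mfap5 in deligated and 16.4 and 10.9 CPM in homeostatic libraries, on 71, 24, 10 and 7 UMIs. Those UMIs came from only 19, 13, 1 and 3 cells, so they do not give a level of the class as a whole. Eln, Fbn1 and Emilin1 were spread over fibroblast-like, mural-like (the contractile cells of vessel walls) and endothelial-like cells, and macrophage-like cells held a further 9.57% and 6.68% of the homeostatic Emilin1 UMIs. Fbln2, Fbln5 and Mfap2 were shared between fibroblast-like and endothelial-like cells. Levels below are counts per 1e+06 (CPM), the UMIs of a gene scaled to the UMIs of a class in one library, given as mean ± SD over the 2 libraries of a group. They are levels of 1 gene across classes, and classes were not tested against each other because the clusters come from the same cells.

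Homeostatic Eln stood at 290 ± 13.9 CPM (SD, n = 2) in fibroblast-like, 135 ± 1.69 in endothelial-like cells, and 102 ± 25.9 in the mural-like class, in that order without overlap between libraries. Homeostatic Fbn1 was at 557 ± 13.6 CPM in fibroblast-like, 79.9 ± 1.82 in mural-like and 36.1 ± 0.434 in endothelial-like cells, in that order without overlap. Homeostatic Emilin1 was at 138 ± 9.11, 53.6 ± 2.94 and 14.1 ± 0.136 CPM in the same 3 classes, again without overlap. Homeostatic Fbln2, the fibulin of basement membranes and vessel walls, was highest in endothelial-like cells at 567 ± 26.3 CPM, against 274 ± 74.5 in fibroblast-like and 56.5 ± 18.8 in Schwann-like cells, the glia of peripheral nerves. Erythroid-like cells held 95.3 ± 3.65 CPM of Fbln2, with endothelial markers summing to 2760 and 2870 CPM in them, and their part in that level was not tested. Homeostatic Mfap2 stood at 104 ± 10.8 CPM in fibroblast-like and 83.8 ± 1.4 in endothelial-like cells, with 12.0 ± 0.725 in mural-like cells. Homeostatic Fbln5 stood at 126 ± 0.0568 CPM in fibroblast-like and 99.9 ± 36.5 in Schwann-like cells, whose spread reaches the fibroblast-like level, and at 58.0 ± 0.826 in endothelial-like cells.

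Lymphoid cells, which are not known as a source of elastic fibres, served as the low reference for these genes. In NK and innate lymphoid-like cells, with median depths of 5507 to 6218 UMIs, no member other than Fbln2 exceeded 3.81 CPM in any library, and Fbln2 reached 11.9 CPM in deligated library 2. In T-like cells the highest values were 12.1 CPM for Fbln2 and 6.86 CPM for Eln, both in deligated library 2. After every cell was thinned to 1000 UMIs, Eln was detected in 30% and 30.5% of deligated and 19.8% and 21.01% of homeostatic fibroblast-like cells, against 0% to 0.285% of NK-like cells. Without thinning the fibroblast-like shares were 89.5%, 80.8%, 64.8% and 67.0%, at median depths of 13052, 9042, 6571 and 6636 UMIs.

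**Figure D1:**
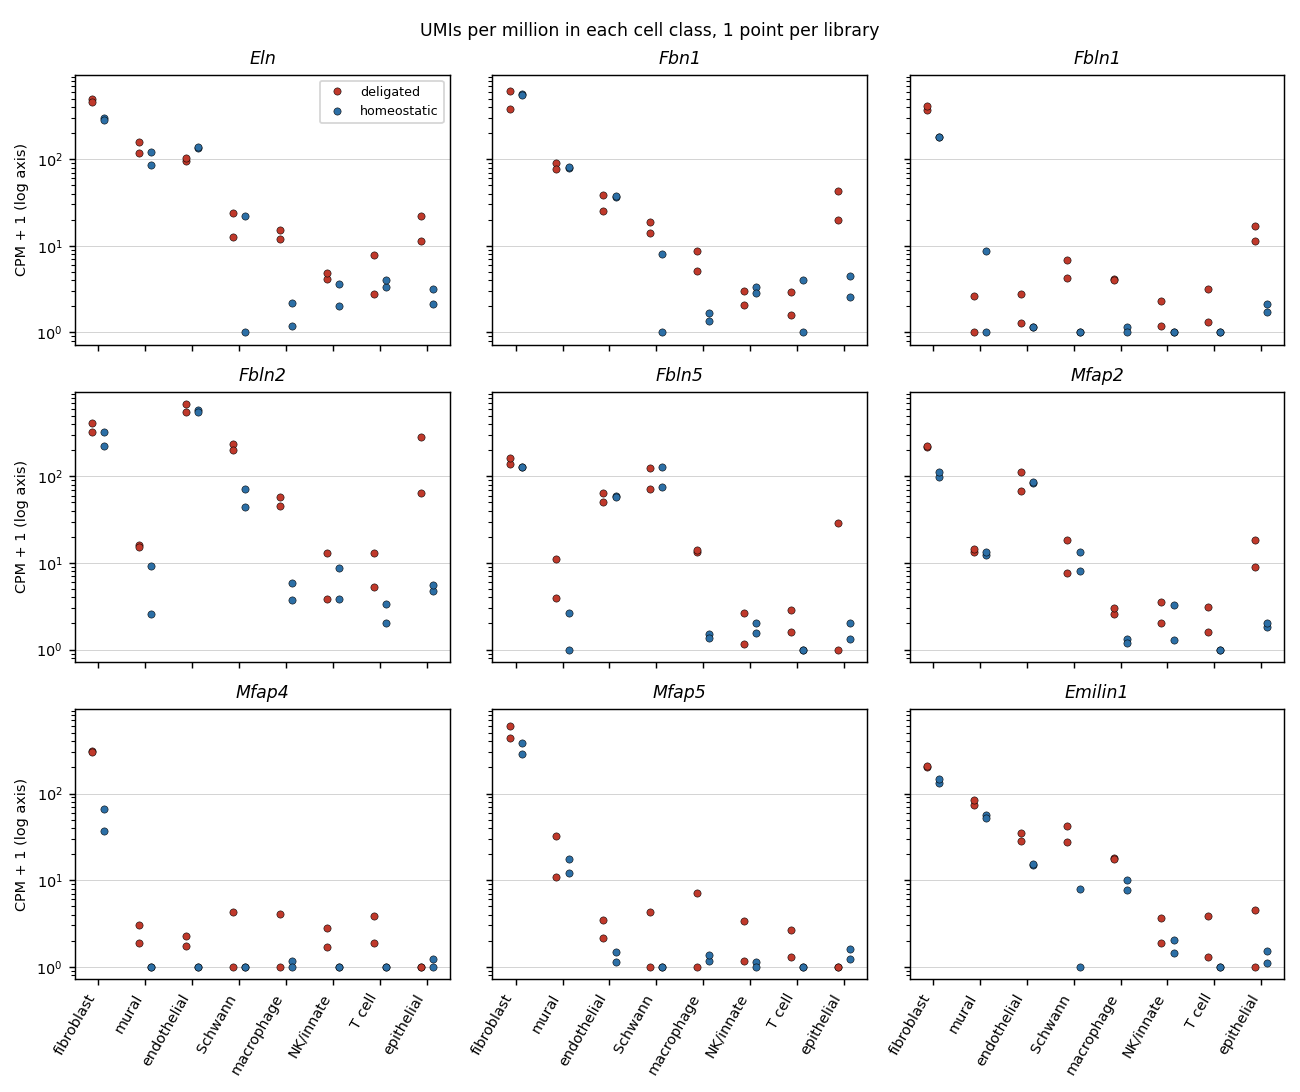
Level of each gene in 8 cell classes. The vertical log axis gives CPM plus 1, each point is 1 library (red deligated, blue homeostatic). Fbln1, Mfap4 and Mfap5 are highest in fibroblast-like cells, with Mfap5 at 9.90 to 31.3 CPM in mural-like cells, while Fbln2 is highest in endothelial-like cells. The mural-like Mfap5 UMIs come from 1 to 19 cells of a library.

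In fibroblast-like cells, 6 of the 9 genes rose after deligation and none fell. The largest rise was in Mfap4, followed by Fbln1, Mfap2, Eln, Mfap5 and Emilin1, while Fbln2, Fbln5 and Fbn1 did not pass the test. Of all 11527 genes tested in these cells 26.9% passed in either direction and 8.78% rose. Of the genes that passed 32.6% had risen, or 45.9% with the intron-length trend removed. The median log2 fold change of the 9 genes was 0.71, against 0.01 over all genes tested. These sums rest on 361 and 744 deligated and 301 and 279 homeostatic cells. The deligated cells all fell in 1 cluster, which also held 8.64% and 4.66% of the homeostatic fibroblast-like cells, and the other 91.4% and 95.3% formed a cluster with no deligated cell. The 8 fibroblast markers summed to 41349 and 38895 CPM in deligated and 27830 and 28270 CPM in homeostatic cells of the class. Markers of red blood cells summed to 56.0, 2459, 400 and 63.2 CPM (deligated 1, deligated 2, homeostatic 1, homeostatic 2). Without overlap, mural markers summed to 569 and 593 against 381 and 385 CPM and Schwann markers to 61.5 and 62.9 against 118 and 132 CPM. Epithelial markers summed to 4.00 and 3.72 against 36.8 and 27.1 CPM and T cell markers to 4.84 and 13.2 against 2.05 and 0 CPM, again without overlap. The part of any of these markers in the results was not tested.

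Elastin itself was at 490 and 460 CPM in the deligated and 299 and 280 CPM in the homeostatic libraries. The lowest deligated value was above the highest homeostatic one. The log2 fold change of Eln was 0.78 ± 0.13 (SE), with an adjusted p of 0.0016 by edgeR's quasi-likelihood test with Benjamini-Hochberg adjustment, as for all adjusted p-values here. Without homeostatic library 2, Eln had a log2 fold change of 0.73 and an adjusted p of 0.052, which ends the call.

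Fbn1 showed no such separation. Its levels were 605 and 376 CPM in the deligated and 567 and 547 CPM in the homeostatic libraries, so that the groups overlapped and deligated library 1 held the highest and deligated library 2 the lowest value. The log2 fold change of Fbn1 was -0.11 (95% interval -0.59 to 0.36, adjusted p = 0.73). Removing the intron-length trend turned it to 0.99 (adjusted p = 0.012). It turned to -0.53 (adjusted p = 9.3e-06) without deligated library 1 and to 0.24 (adjusted p = 0.037) without deligated library 2. No direction is therefore given for Fbn1 in fibroblast-like cells.

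Among the microfibril-associated genes, Mfap4, which encodes a fibrinogen-related protein that binds elastin and fibrillin, was at 306 and 298 CPM in deligated and 64.99 and 36.1 CPM in homeostatic libraries. Both deligated values were over 4 times the higher homeostatic value. Its log2 fold change was 2.64 ± 0.22 (adjusted p = 3.4e-05) and ranged from 2.28 to 3.12 over the alternatives tried. After thinning to 1000 UMIs, 20.3% and 17.2% of deligated and 3.41% and 2.54% of homeostatic fibroblast-like cells had an Mfap4 UMI, against at most 0.333% of NK-like cells. Without thinning those fibroblast-like shares were 54.0%, 46.0%, 9.30% and 8.24%. Mfap2, a small fibrillin-binding glycoprotein, was at 215 and 222 CPM against 96.7 and 112 CPM. The log2 fold change of Mfap2 was 1.13 ± 0.14 (adjusted p = 0.00028), and every alternative kept its call. Mfap5, its close relative, was at 609 and 437 CPM against 383 and 288 CPM. The groups of Mfap5 did not overlap but its libraries spread more, with a log2 fold change of 0.71 ± 0.20 (adjusted p = 0.026) that fell to 0.52 (adjusted p = 0.23) without homeostatic library 2.

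Among the fibulins, Fbln1 was at 372 and 413 CPM in deligated and 181 and 180 CPM in homeostatic libraries. Its log2 fold change was 1.18 ± 0.12 (adjusted p = 0.00012). Fbln2 was at 412 and 325 CPM against 222 and 327 CPM, with overlapping groups and a log2 fold change of 0.49 (95% interval 0.04 to 0.95, adjusted p = 0.10). Fbln5, which tethers elastin to cells through integrins, was at 136 and 164 CPM against 126 and 126 CPM. Its groups were apart, yet the log2 fold change of 0.32 (95% interval 0.02 to 0.62) had an adjusted p of 0.11. Taking out the intron trend, Fbln2 and Fbln5 passed, at log2 fold changes of 0.76 (adjusted p = 0.030) and 0.67 (adjusted p = 0.0084).

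Emilin1, which encodes a glycoprotein at the border of elastin and microfibrils, was at 201 and 205 CPM in deligated and 132 and 145 CPM in homeostatic libraries. The libraries within a group differed by far less than the groups. Its log2 fold change was 0.61 ± 0.13 (adjusted p = 0.0069). The call was lost once the intron trend was taken out, at 0.34 (adjusted p = 0.10), and without homeostatic library 2, at 0.68 (adjusted p = 0.079). Without homeostatic library 2, 3 members remained called in place of 6, namely Mfap4, Fbln1 and Mfap2, where 13.3% of all genes passed.

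**Figure D2:**
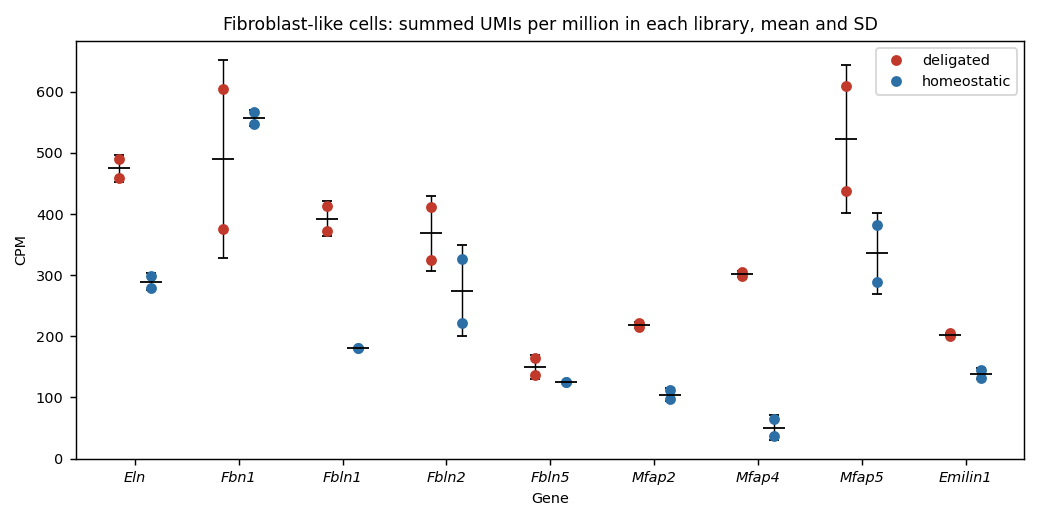
Level of each gene in fibroblast-like cells. The vertical axis gives CPM, points are libraries (red deligated, blue homeostatic), and black dashes with whiskers are the mean and SD of the 2 libraries of a group. Mfap4, Fbln1, Mfap2, Eln, Mfap5, Emilin1 and Fbln5 show no overlap between groups, while Fbn1 and Fbln2 overlap. The share of all genes without overlap is not given here, so the separation is not read as a trait of these genes.

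More of these genes were detected per fibroblast-like cell after deligation. Whether they shared cells beyond what the level of each gene gives was not tested. At 1000 UMIs per cell, 41.1% and 36.8% of deligated but 14.3% and 18.1% of homeostatic fibroblast-like cells had a UMI of at least 3 of the 9 genes. The mean number detected per cell was 2.32 and 2.20 in deligated and 1.38 and 1.47 in homeostatic libraries. At least 3 were seen in at most 0.637% of mural-like cells and in 1.29% to 2.05% of endothelial-like cells of a library. Values per cell were not tested, since cells of 1 library are not replicates.

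The sequence upstream of Fbln1 and Mfap2, which rose in fibroblast-like cells, is shown beside that of Fbln5, which did not pass, from the RefSeq promoter table (GRCm38.p6). Entries were found for 6 of the 9 genes, namely Fbn1, Fbln1, Fbln2, Fbln5, Mfap2 and Emilin1. Each run is the 250 bases before the annotated start, 5′ to 3′ on the gene's strand, with capitals for a match to a searched motif. Fbln1, Mfap2 and Fbln5 had 2 entries each. The entry whose start lay nearest the 5′ end of the gene was taken, and matches hold for that entry only. Motifs were searched on both strands, and no match overlapped another. The TATA box was spelled TATAAA. The spelling of the GC box was GGGCGG. The AP-1 site, bound by Fos and Jun proteins, was TGAGTCA. The site of TEAD factors was searched as GGAATG. Finally, the SMAD element was GTCTAGAC. The windows are chr15:85205699-85205948 (plus strand) for Fbln1, chr4:141010174-141010423 (plus strand) for Mfap2 and chr12:101819120-101819369 (minus strand) for Fbln5.
Fbln1: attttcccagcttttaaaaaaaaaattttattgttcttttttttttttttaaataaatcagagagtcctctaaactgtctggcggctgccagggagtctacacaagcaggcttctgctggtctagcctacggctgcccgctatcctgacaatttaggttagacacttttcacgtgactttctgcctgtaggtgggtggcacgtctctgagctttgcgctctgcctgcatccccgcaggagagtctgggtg
Mfap2: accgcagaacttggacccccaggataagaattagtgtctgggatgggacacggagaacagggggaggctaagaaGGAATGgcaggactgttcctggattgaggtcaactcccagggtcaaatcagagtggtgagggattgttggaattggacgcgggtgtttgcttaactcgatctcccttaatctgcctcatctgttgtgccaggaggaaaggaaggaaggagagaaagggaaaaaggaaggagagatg
Fbln5: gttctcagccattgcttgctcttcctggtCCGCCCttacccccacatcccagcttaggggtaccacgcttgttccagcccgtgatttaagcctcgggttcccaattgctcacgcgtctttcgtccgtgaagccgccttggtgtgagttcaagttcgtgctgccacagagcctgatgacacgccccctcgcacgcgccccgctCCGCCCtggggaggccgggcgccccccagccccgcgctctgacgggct
Mfap2 held 1 TEAD match and Fbln5 held 2 GC-box matches, while Fbln1 and Emilin1 held none of the 5 motifs in this window. Fbn1 and Fbln2 held 1 GC-box match each. Over all 32851 promoters of the table, 32.7% held the GC box, 12.6% the TEAD site, 12.4% the TATA box, 4.46% the AP-1 site and 0.167% the SMAD element. GC content was 46.4% for Fbln1, 51.2% for Mfap2, 63.2% for Emilin1 and 65.2% for Fbln5, around a median of 52.4% over all promoters.

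Fibroblast-like cells were then divided by Pi16 and Dpp4, which mark adventitial fibroblasts of many organs. A cell with at least 1 UMI of either gene was called positive. Positive cells were 40.7% (exact 95% interval 35.6 to 46.0) and 31.5% (28.1 to 34.9) of deligated and 13.6% (9.96 to 18.0) and 13.3% (9.51 to 17.8) of homeostatic fibroblast-like cells. When cells were first thinned to 1000 UMIs, the shares were 11.4%, 11.2%, 9.22% and 5.43%, so the gate depends on depth. The homeostatic libraries held 41 and 37 positive cells, fewer than the 50 per library set for a test, and values of positive cells are given without one.

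In homeostatic glands Fbn1 and Mfap5 were concentrated in the positive cells. Fbn1 was at 1722 and 1467 CPM in positive against 354 and 375 CPM in negative homeostatic cells, a ratio of 4.87 (95% counting interval 4.32 to 5.48) and 3.91 (3.45 to 4.43). In deligated libraries Fbn1 was at 769 and 450 CPM in positive against 483 and 336 CPM in negative cells, ratios of 1.59 (1.48 to 1.71) and 1.34 (1.23 to 1.45). The homeostatic ratios of Fbn1 were thus above both deligated ones in each library. Mfap5 followed, with ratios of 7.55 (6.51 to 8.76) and 5.28 (4.44 to 6.27) in homeostatic and 2.06 (1.91 to 2.22) and 1.81 (1.68 to 1.95) in deligated libraries. Gating after thinning gave Fbn1 ratios of 6.68 and 5.20 in homeostatic and 1.59 and 1.18 in deligated libraries, and Mfap5 ratios of 8.69 and 4.43 against 1.99 and 1.74. Intervals of these ratios come from exact binomial intervals and cover counting error only, and the difference between groups was not tested.

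Mfap4 was higher in positive than in negative cells of every library, by 2.49 and 2.94 times in deligated and 3.89 and 3.10 times in homeostatic ones. Emilin1 leaned the other way, with ratios of 0.787 and 0.945 in deligated and 0.359 and 0.759 in homeostatic libraries, although the intervals of deligated library 2 and homeostatic library 2 include 1 and gating after thinning turned the deligated ratios to 1.07 and 1.09. No direction between groups is given for Fbn1 in positive cells, where no fit was made and the intron-length trend was not removed. Within positive cells Mfap5 was at 863 and 617 against 1432 and 908 CPM, and Mfap4 was at 465 and 524 against 174 and 84.1 CPM.

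Negative cells were numerous enough for a test, with 214 and 510 deligated and 260 and 242 homeostatic cells. The same 6 genes rose as in the whole class, at log2 fold changes of 2.38 for Mfap4, 1.11 for Mfap5, 0.96 for Mfap2, 0.87 for Fbln1, 0.67 for Eln and 0.57 for Emilin1, with adjusted p-values from 2.1e-05 to 0.011. Of all genes tested there, 24% passed in either direction and 7.48% rose. Mfap5 was at 419 and 342 CPM in deligated against 190 and 172 CPM in homeostatic negative cells, with less spread than in the whole class. Fbn1 in negative cells had a log2 fold change of 0.21 (adjusted p = 0.43). With the intron trend removed Fbn1 and Fbln5 passed in negative cells, at 1.26 (adjusted p = 0.0013) and 0.59 (adjusted p = 0.017), and Emilin1 did not, at 0.32 (adjusted p = 0.15). Emilin1 fell short after thinning too (0.56, adjusted p = 0.093). Leaving out homeostatic library 1 left 2 of the 6 calls and leaving out homeostatic library 2 left 4, where 9.52% and 10.2% of all genes passed.

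**Figure D3:**
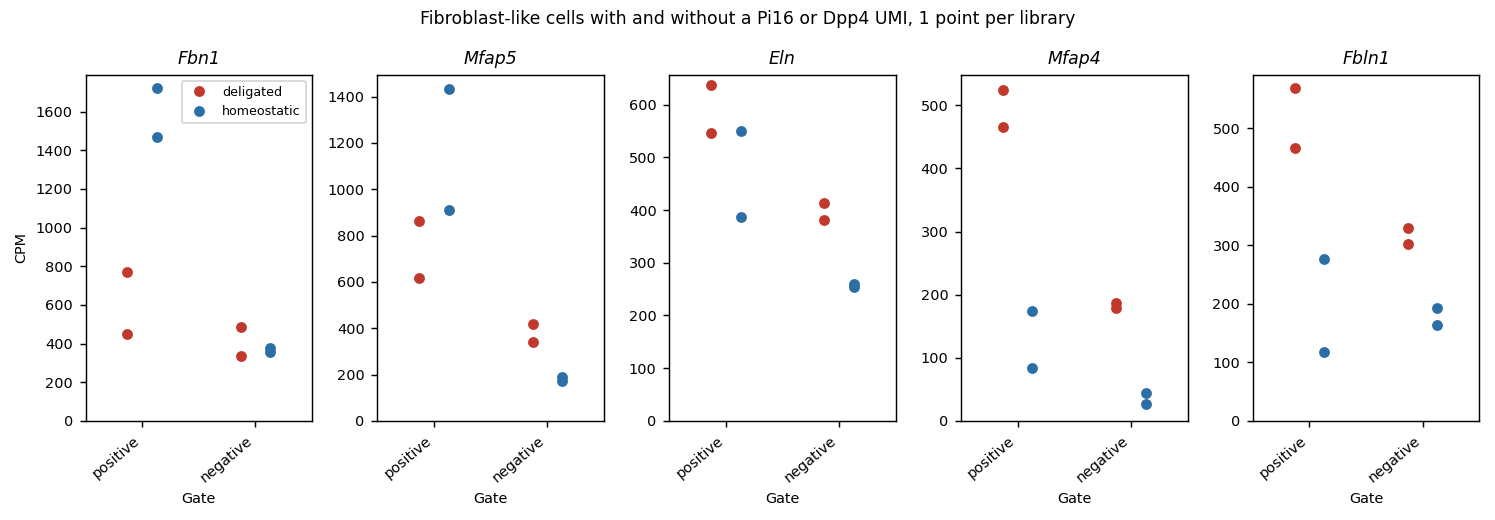
Level of 5 genes in fibroblast-like cells with (positive) and without (negative) a UMI of Pi16 or Dpp4. The vertical axis gives CPM and each point is 1 library (red deligated, blue homeostatic). In the homeostatic libraries Fbn1 is at 1722 and 1467 CPM in positive against 354 and 375 CPM in negative cells, and groups are not ranked by Fbn1, whose fold change turns with the intron-length trend in the whole class. Mfap4 is higher in deligated libraries in both gates.

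In mural-like cells, with 320 and 448 deligated and 129 and 111 homeostatic cells, 0 of the 6 members tested passed, while 8.55% of all 9785 genes did. Of the genes that passed 16.4% had risen, or 38.4% with the intron-length trend removed. At an unadjusted p under 0.05 there were 2, Fbln2 and Emilin1, and DESeq2 called 0 members. The 8.55% holds for adjusted p, and the share of all genes at unadjusted p is not given here. Without deligated library 2 there were 2 calls of 4 tested, where 12.1% of all genes passed. Simulated data with the same depths recovered 32.3% of genes changed by a log2 fold change of 1 and 84.8% of those changed by 2 in this class. The simulation used the same dispersion for every gene and changed genes drawn at random from those tested. These shares therefore do not give the recovery of single members with few UMIs. Emilin1 was at 72.2 and 84.2 CPM in deligated and 55.7 and 51.5 CPM in homeostatic libraries, apart in its groups, with a log2 fold change of 0.52 (95% interval 0.10 to 0.95, adjusted p = 0.14). Eln was at 157 and 118 CPM against 83.5 and 120 CPM, with overlap, and a log2 fold change of 0.41 (-0.09 to 0.91, adjusted p = 0.34). Fbn1 stood at 88.5, 75.5, 78.6 and 81.2 CPM in deligated 1, deligated 2, homeostatic 1 and homeostatic 2, a log2 fold change of 0.02 (-0.41 to 0.44, adjusted p = 0.98). Once the intron trend was taken out, mural-like Fbn1 passed at 0.82 (adjusted p = 0.031). Fibroblast markers summed to 1072 and 999 CPM in deligated and 513 and 543 CPM in homeostatic mural-like cells. Markers of red blood cells summed to 6006 CPM in deligated library 2, against 36.1, 167 and 75.0 CPM in deligated 1, homeostatic 1 and homeostatic 2. NK markers summed to 42.3 and 71.8 in deligated against 4.91 and 1.56 CPM in homeostatic mural-like cells, and T cell markers to 33.5 and 49.9 against 22.9 and 20.3 CPM. Epithelial markers summed to 1.76 and 8.67 against 31.1 and 34.4 CPM, and macrophage markers to 1.76 and 23.9 against 49.1 and 82.8 CPM. Endothelial markers summed to 381 and 693 against 380 and 367 CPM. The part of any of these markers in these values was not tested.

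Mural-like cells were gated on markers of smooth muscle cells and of pericytes, which wrap small vessels. Fbn1 was higher in gated pericytes than in smooth muscle cells of every library, by 3.14, 3.48, 3.73 and 2.61 times (deligated 1, deligated 2, homeostatic 1, homeostatic 2), at 150 ± 14.2 against 45.6 ± 7.59 CPM in deligated libraries. Gating after thinning left ratios of 1.78 and 1.98 in the deligated libraries, with intervals that include 1. Emilin1 was lower in pericytes of the deligated libraries, by ratios of 0.403 (0.258 to 0.609) and 0.504 (0.352 to 0.708), and its ratio in homeostatic library 1 was 0.574 (0.224 to 1.30). Mfap5 was higher in pericytes of the deligated libraries, by 13.5 (6.67 to 30.9) and 4.37 (1.72 to 12.5) times, on 62 and 17 pericyte UMIs in 17 and 9 cells. Mfap2 was likewise higher there, by 7.18 (2.82 to 21.6) and 4.79 (2.15 to 11.7) times. Fbln2 went opposite ways in the 2 deligated libraries, with ratios of 0.350 (0.105 to 0.917) and 3.45 (1.65 to 7.60). Between deligated and homeostatic smooth muscle cells (175, 232, 58 and 70 cells) 0 of 4 members tested passed, where 5.88% of all genes did. An unadjusted p under 0.05 was seen for 1, Emilin1, and the share of all genes at unadjusted p is not given here. DESeq2 was not run on the gates. Pericytes were too few for a test, with 65 and 41 homeostatic cells.

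In endothelial-like cells, with 1886 and 3115 deligated and 3528 and 3459 homeostatic cells, 4 of 8 members tested passed, where 35.1% of all 13156 genes did. Emilin1 rose and Eln fell. The count was 2 of 6 with cells thinned to 1000 UMIs, where 24.8% of all genes passed, 2 of 9 without homeostatic library 2, where 14.4% passed, and 8 of 9 without deligated library 1, where 54.4% passed. Mfap4 and Mfap5 passed too, on 11, 21, 0 and 0 UMIs and on 17, 41, 7 and 2 UMIs (deligated 1, deligated 2, homeostatic 1, homeostatic 2). In the deligated libraries these are 0.758 and 1.25 CPM of Mfap4 and 1.17 and 2.43 CPM of Mfap5, while NK-like cells of the same libraries held 0.699 and 1.79 CPM of Mfap4 and 0.175 and 2.33 CPM of Mfap5. Mfap4, with 0 homeostatic UMIs, entered the test only through the deligated libraries. No fold is given for Mfap4 and Mfap5 in endothelial-like cells, and the count of 4, which includes both, is not read against the 35.1% of all genes. The 8 fibroblast markers summed to 37.9 and 120 CPM in deligated and 8.59 and 9.27 CPM in homeostatic endothelial-like cells. Mural markers summed to 196 and 193 against 147 and 119 CPM, epithelial markers to 1.93 and 4.21 against 33.7 and 37.6 CPM, and red blood cell markers to 125 and 450 against 815 and 621 CPM, all without overlap. The part of RNA from other cells in the endothelial-like results was not tested.

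Endothelial Emilin1 was at 27.3 and 33.7 CPM in deligated and 14.0 and 14.2 CPM in homeostatic libraries. Its groups did not overlap. Its log2 fold change was 1.13 ± 0.11 (adjusted p = 0.00093), and every alternative kept the call. Endothelial Eln was at 94.1 and 103 CPM in deligated against 134 and 136 CPM in homeostatic libraries. This is the reverse order of the fibroblast-like cells of the same libraries. Endothelial-like cells of the 2 groups lay largely in different clusters. The largest deligated cluster held 61.8% and 73.1% of deligated but 0.142% and 0.231% of homeostatic cells, and 4 clusters, each with 8.11% to 28.6% of the homeostatic cells of a library, held no deligated cell. The log2 fold change of endothelial Eln was -0.44 ± 0.08 (adjusted p = 0.0078), and it stayed between -0.48 and -0.39 over the alternatives. The call was lost without homeostatic library 1 (adjusted p = 0.11) or homeostatic library 2 (adjusted p = 0.15).

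Fbln2, the most abundant of the 9 in endothelial-like cells, was at 553 and 684 CPM against 586 and 549 CPM. Its groups overlapped and the log2 fold change was 0.14 (95% interval -0.12 to 0.39, adjusted p = 0.35). Mfap2 was at 66.9 and 112 CPM against 82.8 and 84.8 CPM (log2 fold change 0.10, adjusted p = 0.72), so that the deligated libraries bracketed the homeostatic ones. Fbn1 was at 37.5 and 24.3 CPM against 35.8 and 36.5 CPM (log2 fold change -0.21, adjusted p = 0.49) and Fbln5 at 50.2 and 62.6 CPM against 58.5 and 57.4 CPM (log2 fold change -0.03, adjusted p = 0.85).

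**Figure D4:**
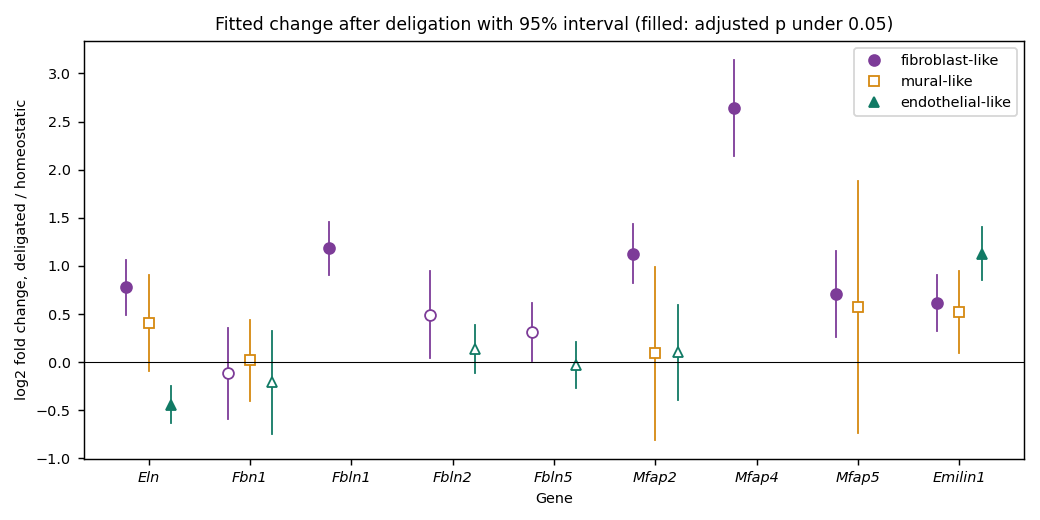
Log2 fold change of each gene, deligated over homeostatic, in 3 cell classes. Symbols are fitted values, vertical lines 95% intervals, and filled symbols have an adjusted p under 0.05. Genes with fewer than 10 homeostatic UMIs in a class are left out. Eln lies at 0.78 in fibroblast-like and -0.44 in endothelial-like cells.

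The change in Eln differed between fibroblast-like and endothelial-like cells. In a model of both classes with the library as a block, the log2 fold change of Eln was larger in fibroblast-like cells by 1.36 (adjusted p = 0.00016), that of Mfap2 by 1.197 (adjusted p = 0.0046) and that of Fbln5 by 0.49 (adjusted p = 0.033). These were 3 of the 9 members, where 5.45% of all genes passed. The median difference in this model was 0.13 over all 14294 genes tested and 0.23 over the 9 members, so the differences hold a shift shared by all genes. Without deligated library 1 there were 7, where 10.4% of all genes passed. The Fbln5 difference was lost without homeostatic library 1 (adjusted p = 0.20) or homeostatic library 2 (adjusted p = 0.19). Against mural-like cells, 0 of 9 members differed and 1.42% of all genes did. At an unadjusted p under 0.05 there were 3, Eln, Fbln1 and Mfap2, and DESeq2 was not run on this model. The 1.42% holds for adjusted p, and no share of all genes at unadjusted p is given here.

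Vessel gates placed the endothelial members. Fbln5 marked the arterial gate, at 114 and 190 CPM in deligated and 274 and 280 CPM in homeostatic libraries, and was at or under 15.6 CPM in each library of the venous and lymphatic gates. Fbn1 was also arterial, 3.45, 3.01, 4.40 and 4.13 times its venous level in deligated 1, deligated 2, homeostatic 1 and homeostatic 2. Eln was lower in the arterial than the venous gate of every library, with ratios from 0.640 to 0.757. Gating after thinning gave Eln ratios of 0.864 and 0.668 in deligated libraries, with intervals that include 1, and 0.463 and 0.404 in homeostatic ones. A cluster led by arterial markers had Eln above the venous gate in every library, so no order of arterial and venous Eln is given. Fbln2 was near even, with ratios from 0.970 to 1.16, but from 1.17 to 2.36 when cells were gated after thinning.

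In the arterial gate (637 and 852 deligated, 658 and 607 homeostatic cells) 4 of 6 members tested passed, where 23.1% of all genes did. Eln was at 98.7 and 110 CPM against 188 and 198 CPM, a log2 fold change of -0.88 ± 0.11 (adjusted p = 0.00037). Fbn1 was at 66.1 and 46.9 CPM against 115 and 118 CPM, a log2 fold change of -1.03 ± 0.17 (adjusted p = 0.0023). The fall of Fbln5 was by 0.86 on the log2 scale (adjusted p = 0.0081), and Emilin1 rose from 7.53 and 8.67 CPM to 23.3 and 27.7 CPM, by 1.66 (adjusted p = 0.00046). The gate took 33.8% and 27.4% of deligated but 18.7% and 17.5% of homeostatic endothelial-like cells, and 8.21%, 9.00%, 8.25% and 7.82% after thinning. With the intron trend removed arterial Fbn1 did not pass, at -0.20 (adjusted p = 0.49). Thinned cells gave 0 calls, where 8.62% of all genes passed, with Eln at -0.59 (adjusted p = 0.12), Fbn1 at -0.70 (adjusted p = 0.11) and Fbln5 at 0.08 (adjusted p = 0.88), and too few UMIs of Emilin1 for a test.

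A cluster led by arterial markers was taken in place of the gate, a choice made after seeing the data. It held 202 and 302 deligated and 291 and 274 homeostatic cells, and there 2 of 6 members passed, where 14.6% of all genes did. Arterial-cluster Eln was at 183 and 177 CPM against 331 and 358 CPM, a log2 fold change of -0.95 (adjusted p = 0.0001). Arterial-cluster Fbn1 was at 165 and 118 CPM against 216 and 218 CPM, a log2 fold change of -0.62 (adjusted p = 0.021). Removing the intron trend turned Fbn1 of this cluster to 0.12 (adjusted p = 0.75) and left its Eln at -0.93 (adjusted p = 0.00021). Fbn1 of the cluster also failed without deligated library 2 (adjusted p = 0.063), homeostatic library 1 (0.11) or homeostatic library 2 (0.12). Fbln5, at 444 and 678 CPM against 721 and 718 CPM, did not pass (adjusted p = 0.12). Arterial-cluster Emilin1, at 16.8 and 12.3 CPM against 8.48 and 5.78 CPM, did not pass either, with a log2 fold change of 1.02 (adjusted p = 0.14).

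In the venous gate (240, 252, 235 and 209 cells) Eln fell by 0.75 on the log2 scale (adjusted p = 0.0056) and Emilin1 rose by 1.09 (adjusted p = 0.024), 2 of 5 members tested, where 14.3% of all genes passed. Venous Eln was at 141 and 171 CPM in deligated and 248 and 278 CPM in homeostatic libraries. The gate took 12.7%, 8.09%, 6.66% and 6.04% of endothelial-like cells (deligated 1, deligated 2, homeostatic 1, homeostatic 2), and 3.97%, 2.21%, 1.91% and 1.62% after thinning. After thinning, with 74, 68, 66 and 55 cells, the log2 fold change of Eln was -1.44 (adjusted p = 0.044), and too few UMIs of Emilin1 were left for a test. With the intron trend removed venous Emilin1 did not pass, at 0.92 (adjusted p = 0.069), nor did it without homeostatic library 1, at 0.78 (adjusted p = 0.21). For venous Eln, without homeostatic library 2 the value was -0.65 (adjusted p = 0.11), which ends the call. In the lymphatic gate (139, 255, 185 and 164 cells) 1 of 6 members tested passed, Fbln5 on 21, 26, 7 and 0 UMIs, where 16.7% of all genes passed. No cluster was led by lymphatic markers, and the gate took 7.37%, 8.19%, 5.24% and 4.74% of endothelial-like cells but 0.805%, 0.715%, 0.839% and 0.588% after thinning. Lymphatic Fbln5 did not pass without homeostatic library 2 (adjusted p = 0.35) or without deligated library 1 (adjusted p = 0.067).

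**Figure D5:**
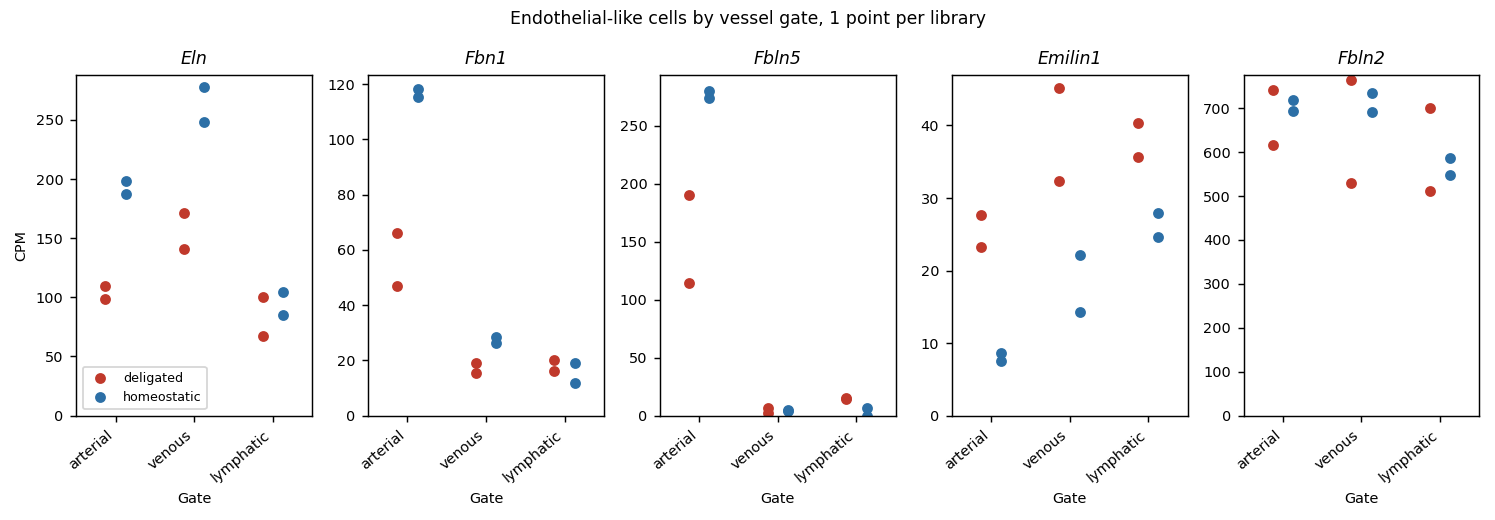
Level of 5 genes in endothelial-like cells gated as arterial, venous or lymphatic. The vertical axis gives CPM and each point is 1 library (red deligated, blue homeostatic). Fbln5 is high only in the arterial gate, and Eln is lower in deligated than homeostatic libraries in the arterial and venous gates.

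The wider elastic fibre pathway, a list of 52 genes, had 46 genes tested in fibroblast-like cells, of which 19 rose and 4 fell. Over all genes tested there, 26.9% passed and 8.78% rose. With the intron trend removed 21 rose and 3 fell, and Efemp2, Tgfb1, Ctsl, Sod3 and Atp7a no longer passed. Of all genes that passed, 45.9% had risen with the trend removed, against 32.6% with it left in. The median log2 fold change of the list was 0.33, against 0.01 over all genes tested. Of 9 cross-linking and processing genes tested 5 rose and 2 fell. Lox, the copper enzyme that cross-links elastin and collagen, was at 177 and 139 CPM in deligated and 27.6 and 28.7 CPM in homeostatic libraries, a log2 fold change of 2.55 ± 0.19 (adjusted p = 1.8e-05). Loxl1, its relative with a part in elastic fibre upkeep, was at 617 and 568 CPM against 256 and 253 CPM, a log2 fold change of 1.28. Tll1, a protease of the bone morphogenetic protein 1 family, fell by 3.16 on the log2 scale, from 13.3 and 14.9 CPM to 0.632 and 2.17 CPM. Fold changes and levels of single pathway genes, here and below, are given with the intron-length trend left in.

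Of the 7 genes for latent TGF-beta binding proteins and TGF-beta ligands 4 rose, namely Ltbp2, Ltbp3, Tgfb1 and Tgfb3. Tgfb3 was at 58.9 and 39.8 CPM in deligated and 8.19 and 10.1 CPM in homeostatic libraries, a log2 fold change of 2.49. Ltbp2 had 185 and 20 UMIs in the deligated libraries and 0 in both homeostatic ones. Set against a floor of 3 UMIs in a homeostatic library, Ltbp2 was at least 24.5-fold higher in deligated library 1 and at least 1.95-fold higher in deligated library 2. Of 7 other microfibril and fibulin genes tested 2 rose, Efemp2 and Fbln7.

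Of 5 ADAMTS and ADAMTS-like genes 1 rose and 2 fell. Adamtsl2, a fibrillin-binding protein, was at 91.4 and 118 CPM against 30.2 and 17.5 CPM, and Thsd4 fell from 14.8 and 14.9 CPM to 0.421 and 0.465 CPM. Of 5 elastin-degrading proteases tested 3 rose, Mmp2, Ctsk and Ctsl, and of 3 inhibitors 1, Timp1. Ctsk, a lysosomal elastase and collagenase, was at 420 and 438 CPM against 222 and 200 CPM. Timp1 was at 322 and 93.3 CPM against 9.72 and 23.4 CPM, so that its deligated libraries differed from each other by more than 3 times. Bgn, the proteoglycan biglycan, was at 2769 and 2819 CPM against 1196 and 1216 CPM, and of 5 integrin subunits 1, Itgb5, rose. In endothelial-like cells 17 of 40 pathway genes tested rose and 7 fell, where 35.1% of all genes passed and 36.8% of those had risen. With the intron trend removed 18 rose and 2 fell, where 40.9% of all genes that passed had risen. The endothelial-like count includes Dcn, which is also one of the 8 fibroblast markers, at 10.9 and 45.9 CPM against 3.77 and 4.24 CPM. Those markers summed to 37.9 and 120 against 8.59 and 9.27 CPM there, and their part in the count was not tested. Among mural-like cells 4 of 30 rose and 2 fell, where 8.55% of all genes passed and 16.4% of those had risen. With the intron trend removed 4 rose and 0 fell, where 38.4% of all genes that passed had risen.

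Genes whose level followed a member most closely over 40 sums (10 classes in 4 libraries) were found by Pearson correlation of log2(CPM + 1), as a description, among 14532 genes. The sums share libraries and depth. Mfap4 was most like Inmt (r = 0.97) and Svep1 (0.95), Fbln1 like Cpxm1 and C3 (both 0.93), and Eln like Tns2 (0.92) and Spry1 (0.91). Fbn1 was most like Sned1 and Plekhh3 (both 0.92), Fbln2 like Npr2 and Fam171a1 (both 0.92), and Fbln5 like Nid2 (0.89) and Aebp1 (0.87). Mfap2 was most like 2700081O15Rik (0.95) and Osmr (0.94), Mfap5 like Gsc and Gabra3 (both 0.93), and Emilin1 like Pdzd4 and Ecm1 (both 0.89). Between members, Eln and Fbn1 had r = 0.89, Fbln1 and Mfap4 0.88, Mfap4 and Mfap5 0.87 and Fbln2 and Mfap2 0.87, and the lowest value was 0.27, for Fbln2 and Mfap5.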

How the data were processed

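The deposited files hold, for each of the 4 libraries, a matrix of UMI counts per gene and cell barcode, made by the authors with Cell Ranger (6.0.1 for the deligated and 7.0.0 for the homeostatic libraries, per the file headers). Cell Ranger 6.0.1, Seurat and mm10 stand in the submitters' processing notes. Each matrix listed 31053 genes.

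Cells with at least 300 genes and at most 10% mitochondrial UMIs were kept. A simulated-doublet score then removed a share of each library that grew with its cell number, 3.63% to 9.66%. Its neighbour number of 30 was set after cell numbers were seen. Counts were clustered in scanpy 1.11.5 (3000 variable genes without the 9 members, 30 components, Leiden resolution 1). Naming a cluster took 3 or more of a class's markers, each found in at least 10% of its cells and at least 2 times higher than elsewhere. Details of this rule were set with the clusters in view. Vessel and mural gates required at least 2 UMIs over 1 list of markers and more than over the other lists, and the Pi16 and Dpp4 gate at least 1 UMI of either gene.

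UMI sums of each class in each library were tested in edgeR 4.0.16 (R 4.3.3; TMM scaling, filterByExpr, quasi-likelihood test, Benjamini-Hochberg adjustment over all genes of the class, threshold 0.05). A test needed 50 cells in each library. The test was tried on simulated data with the same dispersion for every gene. Among 11451 genes simulated for fibroblast-like cells, it recovered 67.0% of those changed by a log2 fold change of 1 and 98.0% of those changed by 2. DESeq2 1.42.0, other filters, thinning to 1000 UMIs, removal of the trend of fold change on intron length and omission of each library were alternatives.

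The 9 genes, the pathway list and the markers were chosen with earlier results of these data known. Genes named were the 9 members, the 10 pathway genes with the largest change past the threshold in fibroblast-like cells without overlap between groups, and the 2 genes most correlated with each member. Further pathway genes are named by their call alone.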

Additional observations from a re-analysis of the deposited data

Results flagged for a closer look

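Between fibroblast-like and endothelial-like cells the log2 fold change after deligation differed for 3 of the 9 genes, by a test of the difference itself in a model of both classes with the library as a block (edgeR, Benjamini-Hochberg adjustment). For Eln the fibroblast-like value exceeded the endothelial-like one by 1.36 (adjusted p = 0.00016). The difference was 1.197 for Mfap2 (adjusted p = 0.0046) and 0.49 for Fbln5 (adjusted p = 0.033). Of all genes tested 5.45% passed, and their median difference was 0.13. The Fbln5 difference did not pass without homeostatic library 1 (adjusted p = 0.20) or homeostatic library 2 (adjusted p = 0.19). Eln was higher in both deligated libraries in fibroblast-like cells and lower in both in endothelial-like cells.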

How the results depend on the processing

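Of the members' log2 fold changes and class differences recomputed under the alternatives, 523 kept their direction and side of the threshold. A further 29 fell short of the threshold, 31 newly passed it and 41 turned direction. Counts of genes or members called are not among these values. Genes called in fibroblast-like cells numbered 3102, against 2016 with DESeq2, 1040 after thinning, 1958 with the intron-length trend removed and 1589 to 4609 with 1 library left out. In mural-like cells they numbered 837, against 501 with DESeq2, 527 without a filter on low counts, 192 after thinning, 443 with the intron trend removed and 232 to 1000 with 1 library left out. In endothelial-like cells they numbered 4618, against 2678 after thinning and 1949 to 7484 with 1 library left out.

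With 1 library left out, members called ranged from 3 to 8 in fibroblast-like (all genes 13% to 41.3%), 0 to 2 in mural-like (2.32% to 12.1%), 2 to 8 in endothelial-like (14.4% to 54.6%), 2 to 8 in Pi16 and Dpp4 negative (9.52% to 35.2%), 1 to 4 in venous (7.54% to 24.8%) and 0 to 1 in lymphatic cells (9.62% to 22.8%). Members with a class difference then ranged from 0 to 2 against mural-like (all genes 0.123% to 3.22%) and from 2 to 7 against endothelial-like cells (1.51% to 10.4%). After thinning, 2 endothelial-like (all genes 24.8%), 0 arterial (8.62%) and 1 venous members (6.2%) were called. With the intron trend removed 1 mural-like (all genes 4.53%) and 1 venous member (8.87%) was called. The arterial cluster, with the trend left in, gave 2 (14.6%).

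Removing the intron trend turned the log2 fold change of Fbn1 to 0.99 in fibroblast-like, 0.65 in endothelial-like, 0.53 in smooth muscle and 0.26 in venous cells. It turned Mfap2 to -0.072 in mural-like and -0.061 in endothelial-like cells, Fbln5 to 0.19 in endothelial-like cells, and Fbln2 to 0.10 in arterial and 0.0074 in venous cells. Thinning turned Fbn1 to -0.10 in mural-like cells, Fbln5 to 0.16 in endothelial-like and 0.082 in arterial cells, and Fbln2 to 0.36 in arterial and 0.13 in venous cells. Doublets retained, an alternative chosen after seeing the data, turned mural-like Fbn1 to -0.34, Fbln2 to -0.52 and Mfap5 to -0.050. The arterial cluster, also chosen after seeing the data, turned Fbln2 to 0.052. Gating cells one by one turned the fibroblast-like minus mural-like difference of Fbln2 to 0.043. The cause was not tested.

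With 1 library left out, Fbn1 ranged from -0.53 to 0.24 in fibroblast-like, -0.13 to 0.20 in mural-like, -0.60 to 0.13 in endothelial-like, -0.11 to 0.51 in Pi16 and Dpp4 negative, -0.38 to 0.16 in smooth muscle and -0.12 to 0.58 in lymphatic cells. Mfap5 ranged from -0.50 to 1.25 in mural-like cells. Fbln5 ranged from -0.13 to 0.084 and Mfap2 from -0.25 to 0.39 in endothelial-like cells, and venous Mfap2 from -0.58 to 0.25. Fbln2 ranged from -0.13 to 0.037 in arterial, -0.36 to 0.064 in venous and -0.11 to 0.26 in lymphatic cells, and lymphatic Eln from -0.44 to 0.042. Differences against mural-like cells ranged from -0.27 to 0.13 for Fbn1, -0.18 to 1.06 for Mfap5, -2.86 to 0.010 for Fbln2 and -3.18 to 7.28 for Fbln1, and against endothelial-like cells from -2.17 to 0.27 for Fbln1. Where 1 library remained in a group, it was assumed to vary like the others.

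The replicate numbers did not pair the samples: deviations of same-numbered libraries correlated at -0.027, -0.0062 and -0.084 in the 3 classes. A fit with the replicate block called 2958, 1164 and 4131 genes, and 6, 0 and 4 members, in fibroblast-like, mural-like and endothelial-like cells. Alternatives for Pi16 or Dpp4 positive cells were not run, with fewer than 50 cells in each homeostatic library. Few cells stand behind some values, with 129 and 111 homeostatic mural-like cells and 41 and 37 homeostatic Pi16 or Dpp4 positive cells.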

Other observations

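Schwann-like cells, with 29 and 63 deligated and 50 and 40 homeostatic cells, were too few for a test and are given as values. Their Fbln2 stood at 218 ± 23.9 CPM (SD, n = 2) in deligated and 56.5 ± 18.8 CPM in homeostatic libraries, without overlap. Their Fbln5 stood at 97.7 ± 38.7 and 99.9 ± 36.5 CPM, with overlap. In macrophage-like cells, which were not tested either, the Fbln2 level was 50.6 ± 7.80 CPM after deligation against 3.801 ± 1.55 CPM in homeostasis, and Emilin1 at 16.7 ± 0.547 and 7.90 ± 1.73 CPM, both without overlap. Endothelial markers summed to 406 and 700 CPM in deligated and 94.7 and 74.8 CPM in homeostatic macrophage-like cells, mural markers to 1248 and 320 against 18.7 and 16.0 CPM, fibroblast markers to 185 and 252 against 91.9 and 95.4 CPM, and red blood cell markers to 27245 and 56597 against 111589 and 106523 CPM. In Schwann-like cells endothelial markers summed to 52.8, 201, 49.4 and 272 CPM (deligated 1, deligated 2, homeostatic 1, homeostatic 2) fibroblast markers to 5114, 3564, 1896 and 1690 CPM, red blood cell markers to 15623, 217, 204 and 531 CPM, and T cell markers to 387, 102, 0 and 0 CPM. Erythroid-like Fbln2 had the same order, at 401 ± 26.0 against 95.3 ± 3.65 CPM, with endothelial markers at 10344 and 8715 against 2760 and 2870 CPM. The part of these markers in the Fbln2 and Emilin1 levels was not tested.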
